A study of Mus musculus with 8 samples.

Results

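Transcripts of 10 genes of the actin cytoskeleton and its transcription factor were followed in tibialis anterior (TA) muscle of dystrophin-deficient and wild-type mice. The genes, taken by symbol from a table of 55401 genes, were the actin isoforms *Acta1*, *Actc1*, *Acta2*, *Actb* and *Actg1*, the transcription factor *Srf*, and the SRF targets or related actin-binding genes *Tagln*, *Tagln2*, *Cnn1* and *Vcl*. RNA sequencing had been performed on 4 whole TA muscle samples of wild-type mice of the C57/Bl6 strain (WT) and 4 of *mdx5cv* mice, a model of Duchenne muscular dystrophy on the same background. The mice were 6 months of age, and the study's methods give males unless stated otherwise. The *mdx5cv* allele is a chemically induced mutation of *Dmd* present in every cell, and a whole muscle holds fibers, vessels, connective tissue and infiltrating cells together. The study addressed which transcripts differ in dystrophic muscle and examined SRF as a possible activator of miR-486, a microRNA of muscle.

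Actins are near-identical proteins made from separate genes. *Acta1* and *Actc1* encode the sarcomeric actins, with *Acta1* used by adult skeletal fibers and *Actc1* by the heart and by developing or regenerating fibers. *Acta2* encodes the actin of vascular smooth muscle and of myofibroblasts, and *Actb* and *Actg1* encode the cytoplasmic actins of all cells. SRF binds a short AT-rich sequence, the CArG box, and acts with one of 2 families of cofactors. The myocardin-related factors (MRTFs) are held in the cytoplasm by monomeric actin and enter the nucleus when filaments form, whereas the ternary complex factors (TCFs) respond to growth factor signaling.

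The CArG box could be read directly in promoters of these genes, which is why the boxes are shown here. It was searched by its name's consensus over the window from 250 bases before to 50 bases after each start site (RefSeq, GRCm38.p6). The consensus is its own reverse complement, so that 1 search covered both strands. Windows were given for 8 of the 10 genes, and 5 of these held at least 1 box, whereas 1.63% of all windows held one. *Srf* held 2 boxes, as did 0.0183% of windows. In the lines below the box is in capitals within 30 bases of the gene's own strand.
Acta1: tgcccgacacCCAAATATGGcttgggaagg
Actc1: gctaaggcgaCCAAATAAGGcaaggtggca
Actg1: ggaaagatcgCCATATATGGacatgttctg
Srf, distal: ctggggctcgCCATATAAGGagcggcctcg
Srf, proximal: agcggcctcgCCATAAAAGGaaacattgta
Vcl: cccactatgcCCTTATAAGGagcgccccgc
These lie at chr8:123894829-123894858 (minus strand), chr2:114052903-114052932 (minus), chr11:120348566-120348595 (minus), chr17:46556225-46556254 (minus), chr17:46556205-46556234 (minus) and chr14:20929161-20929190 (plus). The box of *Actc1* began 47 bases before the start site, that of *Acta1* 73, that of *Actg1* 90 and that of *Vcl* 227, and those of *Srf* began 82 and 62 bases before it. The windows of *Acta2*, *Tagln2* and *Cnn1* held no full match. That of *Acta2* held 2 stretches that were 1 base off the consensus, as 19.9% of all windows held at least 1.

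The actin genes resemble each other closely in their coding sequence, and reads were assigned to them one by one, so their likeness is shown too. The last 30 coding bases before the stop codon (GENCODE M21 transcripts) are given with bases that differ from *Acta1* in capitals. *Actg2*, the actin of visceral smooth muscle, is added for comparison.
Acta1: ggcccctccattgtgcaccgcaaatgcttc
Actc1: ggcccAtccattgtCcaccgcaaGtgcttc
Acta2: ggGccctccatCgtCcaccgcaaatgcttc
Actg2: ggGccctccattgtCcacAgGaaatgcttc
Actb: ggcccctccatCgtgcaccgcaaGtgcttc
Actg1: ggcccctccatCgtCcaccgcaaatgcttc
Over the whole coding sequence, identity ranged from 81.5% between *Acta2* and *Actg1* to 88.6% between *Actb* and *Actg1*, and was 86.3% between *Acta1* and *Actc1*. Stretches of 50 bases were nevertheless mostly particular to 1 gene in the muscle actins, and less so in the cytoplasmic ones. Of the 50-base windows of the main transcript, 2.22% in *Acta1*, 0% in *Actc1* and 0.352% in *Acta2* also occurred in transcripts of other genes. The share was 14.2% in *Actb* and 56.7% in *Actg1*, where the transcript *Gm12715* alone held 51.1%. In *Tagln* it was 48.3% and in *Vcl* 39.2%, mostly with the overlapping genes *Gm48529* and *Ap3m1* on the other strand. The libraries were stranded, but whether counting used the strand is not stated in the sources used here, which bears on *Tagln* and *Vcl*. No gene on the other strand overlaps *Actg1*, but how reads shared with *Gm12715* were counted is not stated either. The values of *Actg1*, *Tagln* and *Vcl* are therefore less certain than the others. *Gm12715* had at most 11.1 normalized counts in any muscle and was not tested. *Gm48529* itself had normalized counts from 4.72 to 16.8 and *Ap3m1* from 221 to 280, and neither passed the test between groups (adjusted p = 0.807 and 0.674, limma).

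Levels are given as normalized counts, which are reads divided by a size factor for each muscle. Recovered reads ranged from 13862559 to 14921057 in WT and from 13175524 to 14502624 in *mdx5cv*. The test of *mdx5cv* against WT was limma after adding 1 and taking log2, a scale that understates the change of low genes. It covered the 13677 genes whose normalized count averaged 10 or more, and a gene was called at an adjusted p under 0.05. *Dmd* itself was between 6169 and 8155 in WT and between 3461 and 4400 in *mdx5cv*. Summed markers of other cells differed between the groups: macrophage markers (6 of 6 higher) ranged from 332 to 514 in WT and from 1613 to 3861 in *mdx5cv*, fibroblast markers (5 of 6 higher) from 5365 to 8125 and from 17679 to 31691, and regenerating fiber markers (6 of 6 higher) from 118 to 143 and from 2175 to 8502. Of these markers only *Mymx* was at 0 in every WT muscle. A sum is weighted to its most abundant genes, and the median log2 fold change of the 6 fibroblast markers was 0.91. Mature fiber markers (2 of 6 lower) ranged from 907911 to 1086380 in WT and from 667113 to 1022880 in *mdx5cv*, with *mdx5cv* replicate 4 lowest. In bulk tissue, fewer cells of a type and less RNA per cell cannot be told apart.

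Of the 10 genes, 9 were tested, *Cnn1* being under the minimum. In *mdx5cv*, 6 rose (*Actc1*, *Tagln2*, *Actb*, *Acta2*, *Actg1* and *Vcl*) and 2 fell (*Tagln* and *Srf*), whereas *Acta1* was not called. Over all genes tested 20.9% were higher and 20.1% were lower, or 40.9% in either direction. The groups did not overlap in 4 of the genes that rose and in 1 that fell, against 20.3% and 19.8% of all genes, or 5 against 40.1% in either direction. With a change of 1 or more on the log2 scale as well, 3 were higher (*Actc1*, *Tagln2* and *Actb*) and 0 were lower, against 10.3% and 3.27% of all genes. The median log2 fold change of the 9 was 0.69, against 0.00 for all genes tested.

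**Figure D1:**
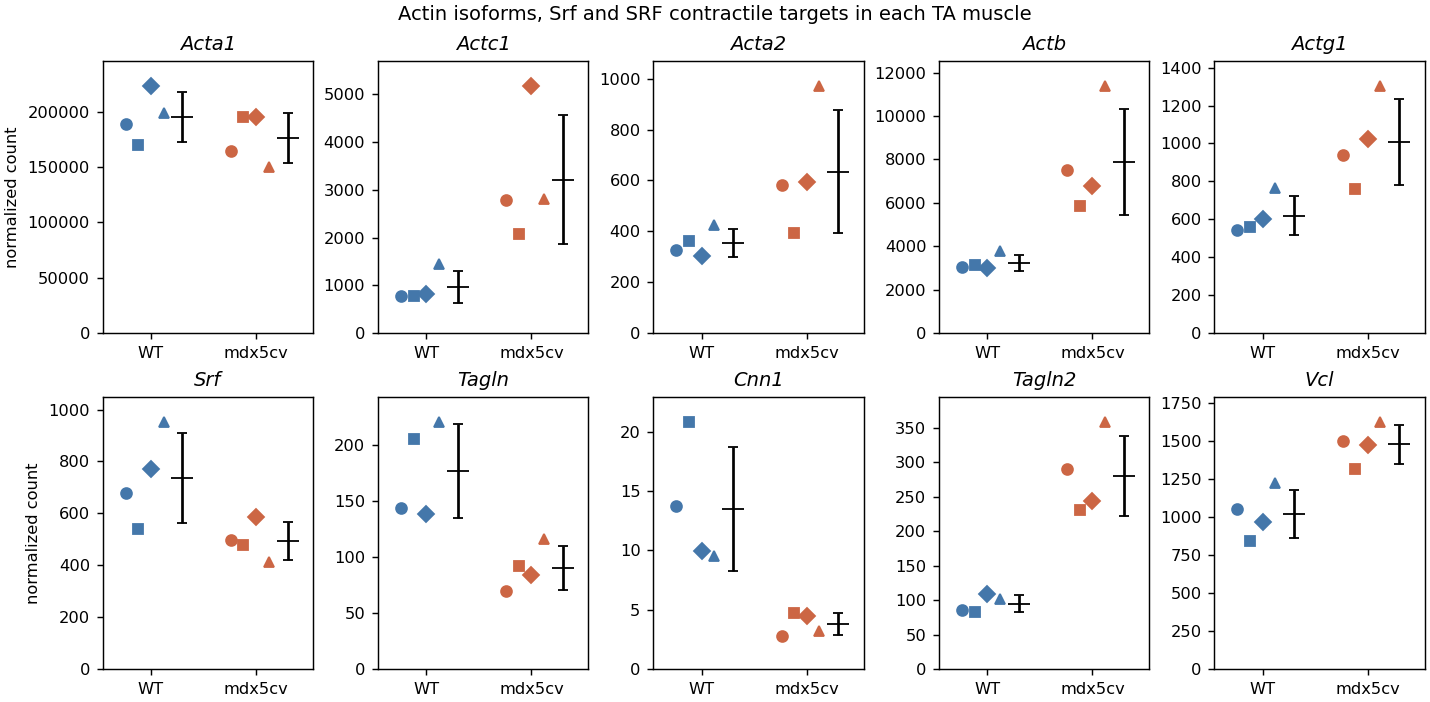
Normalized count of each of the 10 genes in the 4 WT (blue) and 4 *mdx5cv* (orange) muscles, with marker shapes for the replicate number and a bar for mean ± SD on linear axes that start at 0. The *mdx5cv* points of *Actc1*, *Actb*, *Tagln2* and *Vcl* lie above all WT points and those of *Tagln* and *Cnn1* lie below them, whereas those of *Acta1*, *Acta2*, *Actg1* and *Srf* overlap with WT.

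*Acta1* (chromosome 8, 123891769 to 123894751, GRCm38), the main actin of adult skeletal fibers, had normalized counts of 188766, 169956, 223355 and 198828 in WT replicates 1 to 4 and of 164061, 195523, 194748 and 149800 in *mdx5cv* replicates 1 to 4. The groups overlapped, and the lowest muscle of all was *mdx5cv* replicate 4. The log2 fold change was -0.15, with a 95% interval from -0.66 to 0.35 (adjusted p = 0.634, limma), so that differences of these sizes were not excluded.

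*Actc1* (chromosome 2, 114047282 to 114053548), the cardiac sarcomeric actin, showed the largest difference of the 9 genes tested. Its normalized counts were 775, 782, 807 and 1454 in WT and 2783, 2075, 5182 and 2814 in *mdx5cv*. No *mdx5cv* muscle was as low as the highest WT muscle, although WT replicate 4 stood apart from the other WT muscles and *mdx5cv* replicate 3 was far above the rest. The log2 fold change was 1.72 (standard error 0.25, adjusted p = 0.000179, limma), a 3.37-fold higher mean. The muscle with the most *Actc1* was not the one with the highest regenerating fiber markers, whose sum was 3000 in *mdx5cv* replicate 3 and 8502 in *mdx5cv* replicate 4. The part of these markers in the difference was not tested.

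The cytoplasmic actins rose together. *Actb* (chromosome 5, 142903115 to 142906754) had normalized counts of 3021, 3137, 3007 and 3767 in WT and of 7501, 5870, 6764 and 11397 in *mdx5cv*. The groups did not overlap, and *mdx5cv* replicate 4 was highest. *Actb* rose by 1.25 on the log2 scale (standard error 0.17, adjusted p = 0.000120, limma). *Actg1* (chromosome 11, 120345690 to 120348542) had 544, 557, 601 and 767 in WT and 940, 758, 1026 and 1304 in *mdx5cv*. *Mdx5cv* replicate 2 lay just under WT replicate 4, so the groups overlapped. The log2 fold change of *Actg1* was 0.69 (standard error 0.16, adjusted p = 0.00371, limma). The order of the 4 *mdx5cv* muscles was 4, 1, 3, 2 for *Actb* and 4, 3, 1, 2 for *Actg1*, and the sums of macrophage, fibroblast and regenerating fiber markers were also highest in *mdx5cv* replicate 4, at 3861, 31691 and 8502. From high to low, the regenerating fiber sums ranked in the order 4, 1, 3, 2, the fibroblast sums in the order 4, 3, 1, 2 and the macrophage sums in the order 4, 1, 2, 3. The part of these cells in the rise was not tested.

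The genes of smooth muscle went in different directions. *Acta2* (chromosome 19, 34241090 to 34255590) had normalized counts of 324, 361, 304 and 426 in WT and of 582, 391, 594 and 973 in *mdx5cv*. *Mdx5cv* replicate 2 was within the WT range and *mdx5cv* replicate 4 was highest. *Acta2* rose by 0.78 on the log2 scale (standard error 0.21, adjusted p = 0.0108, limma).

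*Tagln* (chromosome 9, 45929619 to 45936058), which encodes the smooth muscle actin-binding protein SM22, had 143, 205, 138 and 220 in WT and 69.5, 91.5, 83.7 and 116 in *mdx5cv*. All *mdx5cv* muscles were below all WT muscles, with a log2 difference of -0.96 (standard error 0.19, adjusted p = 0.00157, limma). *Acta2* therefore stood at 1.76 to 2.26 times the normalized count of *Tagln* in WT and at 4.28 to 8.39 times in *mdx5cv*, a ratio formed after the values were seen and given with no test.

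*Cnn1* (chromosome 9, 22099216 to 22109630), the calponin of differentiated smooth muscle, was scarce. It had 12, 19, 9 and 9 reads in WT and 3, 5, 5 and 4 in *mdx5cv*, or normalized counts of 13.8, 20.8, 9.95 and 9.53 against 2.78, 4.72, 4.50 and 3.20. The groups did not overlap. The mean log2 difference was -1.55 (exact permutation test over 70 splits, two-sided, p = 0.0286, the smallest this design allows, and 0.0476 adjusted over the 10 genes). In limma with no filter on low values the adjusted p was 0.0132.

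Among 10 other smooth muscle contractile genes, 8 were tested, of which 3 fell, 1 rose and 4 were not called, with a median log2 fold change of -0.26 against 0.00 over all genes, of which 20.1% were lower and 20.9% were higher. With equal totals the list had 1 lower and 4 higher. *Myh11*, the smooth muscle myosin heavy chain, was between 459 and 726 in WT and between 276 and 373 in *mdx5cv*, and it fell by 0.87 on the log2 scale (standard error 0.14, adjusted p = 0.000379, limma). *Lmod1*, a filament nucleator of smooth muscle, had a log2 fold change of -0.91, and *Mylk*, the kinase of the regulatory myosin light chain, of -0.50. *Actg2* had at most 4.58 normalized counts in any muscle. *Acta2* thus stood apart from *Tagln*, *Myh11*, *Lmod1* and *Mylk* in its direction.

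Markers of vessels were mixed. Pericyte markers (3 of 6 lower, 2 higher) summed to between 10572 and 11734 in WT and between 7767 and 8899 in *mdx5cv*, and endothelial markers (4 of 5 lower) to between 2492 and 3067 and between 1588 and 2036. Smooth muscle markers (3 of 5 lower, 1 not tested) summed to between 1039 and 1691 and between 1101 and 1317, ranges that overlap. Of those called lower, *Myh11* and *Lmod1* were also counted in the list above. None of the vessel markers was at 0 throughout. Their part in the fall of *Tagln* or in the values of *Cnn1*, and the part of fibroblasts in the rise of *Acta2*, was not tested.

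*Srf* (chromosome 17, 46548329 to 46556175) had normalized counts of 677, 539, 772 and 952 in WT and of 497, 477, 587 and 412 in *mdx5cv*. The groups overlapped, since WT replicate 2 lay under *mdx5cv* replicate 3, and WT replicate 4 was highest. The log2 fold change was -0.55 (standard error 0.16, adjusted p = 0.0146, limma). The call was lost when each muscle was scaled to the same total (log2 fold change -0.20, adjusted p = 0.375) and when both muscles numbered 4 were left out (-0.34, adjusted p = 0.0860), and it held with each muscle left out alone, with an adjusted p of at most 0.0443 (all limma).

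Of 12 genes listed as cofactors or coactivators of SRF, 9 were tested, of which 1 rose, 2 fell and 6 were not called, so that 3 of 9 were called against 40.9% of all genes. *Abra*, which encodes an actin-binding protein of striated muscle, was 1200, 1401, 1907 and 1698 in WT and 652, 677, 938 and 591 in *mdx5cv*, with no overlap. Its log2 fold change was -1.12 (standard error 0.16, adjusted p = 0.000164, limma). *Smyd1*, a muscle methyltransferase that acts with SRF coactivators, was between 4299 and 5170 in WT and between 2319 and 3559 in *mdx5cv*, a log2 fold change of -0.63 (adjusted p = 0.00261, limma). *Mamstr*, a MEF2 coactivator of muscle placed in this list, had a log2 fold change of 0.63 with overlapping groups (adjusted p = 0.0495, limma), and it was the 1 gene of the list called higher. That call was lost in 11 of 19 alternatives, among them edgeR and DESeq2, with an adjusted p of up to 0.144 (without *mdx5cv* replicate 4).

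The myocardin-related factors themselves were not called. *Mrtfa* had a log2 fold change of 0.08 (adjusted p = 0.751) and *Mrtfb* of -0.00 (adjusted p = 0.995). The ternary complex factors *Elk1*, *Elk3* and *Elk4* were at 0.07, -0.28 and -0.01, with adjusted p-values of 0.748, 0.187 and 0.951 (all limma). *Fhl2* had a log2 fold change of 1.17 with an adjusted p of 0.121 (limma) and at most 37 reads. *Myocd*, the smooth muscle and cardiac coactivator, had normalized counts of at most 10.3 and was not tested, and *Nkx2-5* and *Gata4* had no read in any muscle.

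*Vcl* (chromosome 14, 20929398 to 21033676) encodes vinculin, which links actin to integrin adhesions and costameres. It had normalized counts of 1051, 840, 969 and 1223 in WT and of 1500, 1318, 1474 and 1627 in *mdx5cv*. The lowest *mdx5cv* muscle was above the highest WT muscle. *Vcl* rose by 0.54 on the log2 scale (standard error 0.12, adjusted p = 0.00311, limma).

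*Tagln2* (chromosome 1, 172500047 to 172507380), the transgelin of non-muscle and blood cells, had 86.0, 82.3, 108 and 102 in WT and 290, 230, 244 and 359 in *mdx5cv*. The *mdx5cv* muscles were well above the WT muscles, at a log2 fold change of 1.55 (SE 0.16, adjusted p = 1.04e-05, limma). Its paralog *Tagln* moved the other way, so that *Tagln2* was at 0.401 to 0.784 times the normalized count of *Tagln* in WT and at 2.52 to 4.17 times in *mdx5cv* (described after the values were seen).

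**Figure D2:**
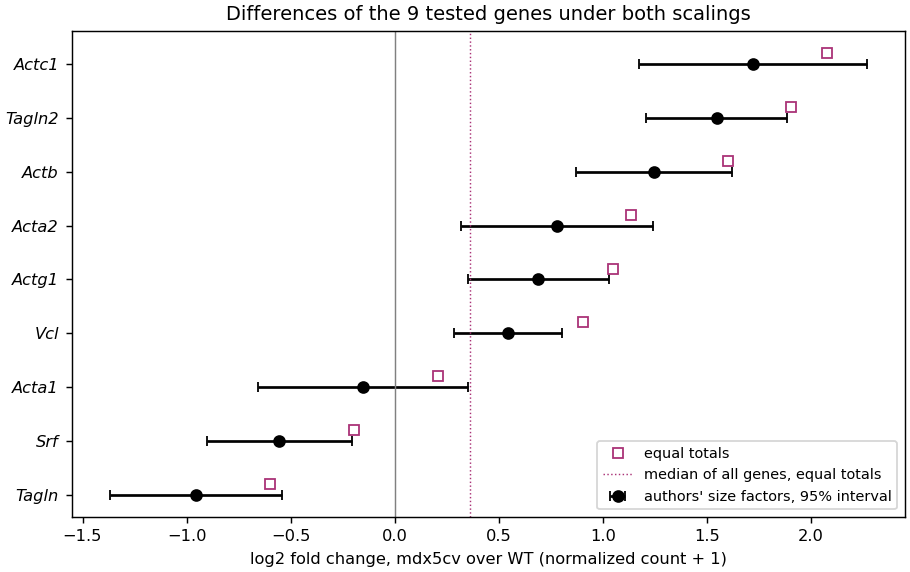
Log2 fold change (*mdx5cv* over WT) of the 9 tested genes with its 95% interval from limma (black circles) and the same value with equal totals (open squares), where the dotted line is the median of all genes at 0.36. *Actc1*, *Tagln2* and *Actb* lie furthest to the right and *Tagln* furthest to the left under both scalings, and *Acta1* changes sign.

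Related cytoskeletal targets of MRTF and SRF went both ways. Of 16 tested, 8 were higher, 3 were lower and 5 were not called, against 20.9% higher and 20.1% lower over all genes, with a median log2 fold change of 0.48 against 0.00. With equal totals 12 were higher and 1 was lower. *Itga5*, a fibronectin receptor subunit, was between 71.1 and 90.7 in WT and between 203 and 382 in *mdx5cv*, a log2 fold change of 1.56 (adjusted p = 4.42e-05, limma). *Cnn3*, the acidic calponin of non-muscle cells, was at 1.21, and *Zyx*, which encodes the adhesion protein zyxin, at 0.94. The calponins thus differed, with *Cnn2* and *Cnn3* higher (0.74 and 1.21) and *Cnn1* at the low counts given above. The 3 that fell were *Filip1l* (-0.72), *Myl9* (-0.65), the regulatory light chain of smooth and non-muscle myosin, and *Fhl1* (-0.58), a LIM protein abundant in fibers.

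The immediate early genes, which are driven by SRF with ternary complex factors, had the largest median of the 5 related lists, at a log2 fold change of 1.74. Of 9 genes 8 were tested and 6 were higher, none lower, against 20.9% and 20.1% of all genes. With a minimum of 10 in every muscle 3 were higher, and the others called were under that minimum and not tested. *Egr3* had a log2 fold change of 2.70, *Junb* of 2.08 and *Egr2* of 1.92, and *Egr3* and *Egr2* had as few as 1 read in a WT muscle. *Junb* was between 46.1 and 61.4 in WT and between 176 and 276 in *mdx5cv* (adjusted p = 1.83e-06, limma). *Mcl1* and *Nr4a1* were not called.

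Regulators of actin monomers and filaments were counted as the proteins that act on these isoforms. Of 32 tested, 17 were higher, 5 were lower and 10 were not called, with a median log2 fold change of 0.48, against 20.9% higher and 20.1% lower over all genes. With equal totals 20 were higher and 0 lower. *Cotl1*, an F-actin-binding protein of blood cells, was between 8.02 and 27.5 in WT and between 204 and 419 in *mdx5cv*, a log2 fold change of 3.77 (SE 0.34, adjusted p = 5.17e-06, limma). *Tmsb10*, a thymosin that binds actin monomers, was at 3.18, and *Coro1a*, the coronin of leukocytes, at 2.54. Those that fell were *Tmod4*, *Twf2*, *Cap2*, *Capza2* and *Pfn2*, with log2 fold changes from -0.60 to -0.40. Some paralogs differed within the list, in pairs picked after the values were seen. The non-muscle cofilin *Cfl1* rose (1.28), whereas the muscle cofilin *Cfl2* was at -0.27 (adjusted p = 0.0659, limma), and *Cap1* rose (1.02) while *Cap2* fell (-0.53). Other paralogs went the same way, such as *Coro1a*, *Coro1b* and *Coro1c*, which all rose (2.54, 0.77 and 1.28). The macrophage markers given above also rose, and their part in this list was not tested.

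**Figure D3:**
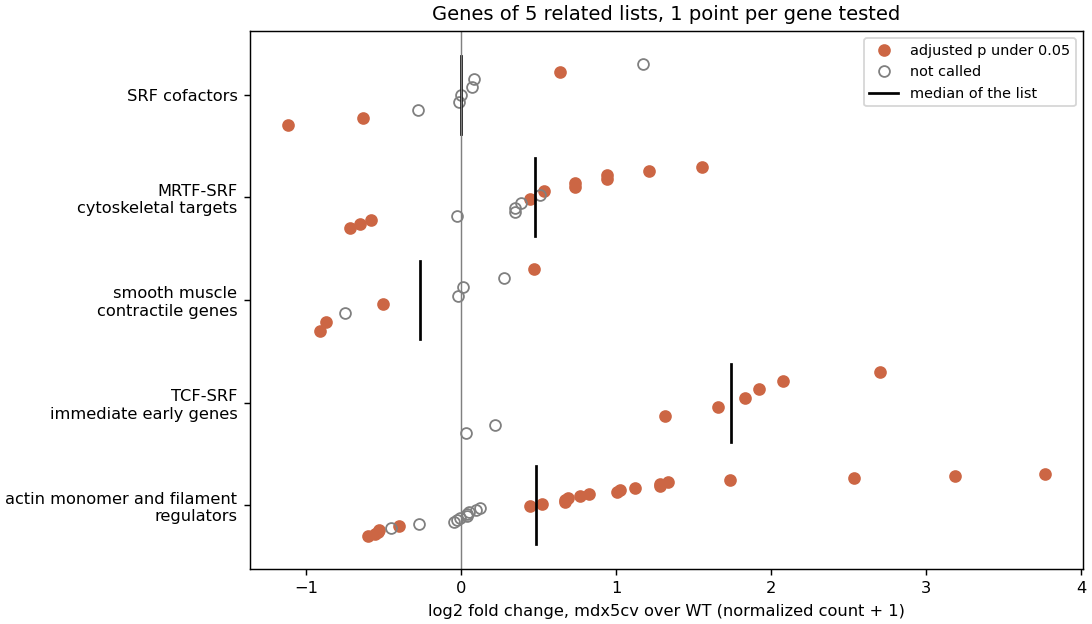
Log2 fold change (*mdx5cv* over WT) of each tested gene in 5 related lists, with filled points for an adjusted p under 0.05 in limma, open points for genes not called and a black line for the median of the list. The immediate early genes have the highest median (1.74) and the smooth muscle contractile genes the lowest (-0.26).

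Levels between genes were compared per kb of exon. No correction was made for sequence shared with other transcripts, which held 56.7% of the 50-base windows of *Actg1*. In WT, *Acta1* stood at 127100 ± 14482 normalized counts per kb (SD, n = 4), followed by *Actb* at 1207 ± 135, *Actc1* at 590.0 ± 206, *Srf* at 254 ± 60.0, *Actg1* at 232 ± 38.6, *Acta2* at 161 ± 24.4, *Vcl* at 125 ± 19.6, *Tagln* at 88.9 ± 21.2, *Tagln2* at 45.4 ± 5.99 and *Cnn1* at 4.94 ± 1.91. Within this order the ranges of *Srf* and *Actg1*, of *Acta2* and *Vcl*, and of *Vcl* and *Tagln* overlapped. In *mdx5cv* the order was *Acta1* (114605 ± 14854), *Actb* (2943 ± 909), *Actc1* (1986 ± 838), *Actg1* (379 ± 85.6), *Acta2* (289 ± 111), *Vcl* (181 ± 15.5), *Srf* (171 ± 24.9), *Tagln2* (135 ± 27.8), *Tagln* (45.3 ± 9.77) and *Cnn1* (1.39 ± 0.349) (SD, n = 4). By the group means *Srf* had moved from the fourth to the seventh place, and *Tagln* and *Tagln2* had changed places. The places of *Srf* were not the same in every muscle, since it was above *Actg1* in 3 of 4 WT muscles. In *mdx5cv*, *Vcl* was above *Srf* in 2 of 4 muscles and *Srf* above *Tagln2* in 3 of 4. The neighbors from *Actg1* to *Tagln2* in the *mdx5cv* order overlapped in their ranges, as did *Actb* and *Actc1*. Within each *mdx5cv* muscle *Actg1* was nevertheless above *Acta2*, and *Acta2* above *Vcl*, in 4 of 4.

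As a share of the summed level of the 5 actins per kb, *Acta1* held between 97.9% and 98.7% in WT and between 93.4% and 97.0% in *mdx5cv*. The mean difference was -3.05 percentage points. *Actb* held 0.942% ± 0.139 in WT and 2.54% ± 1.08 in *mdx5cv*, and *Actc1* 0.458% ± 0.153 and 1.65% ± 0.588 (SD, n = 4). For these 3 shares the groups did not overlap (exact permutation test, two-sided, p = 0.0286, or 0.0476 adjusted over the 5 shares). The 3 calls were lost when any 1 WT muscle was left out (adjusted p from 0.0714 to 0.0952, exact permutation over 35 splits) and held when any 1 *mdx5cv* muscle was. The groups still did not overlap without any 1 WT muscle, and the difference of *Acta1* then stayed between -3.18 and -2.93 percentage points. *Acta2* (0.126% ± 0.0252 and 0.250% ± 0.123) and *Actg1* (0.180% ± 0.0286 and 0.323% ± 0.106) overlapped between the groups, with exact permutation p-values of 0.0857 and 0.0571 and adjusted values of 0.0857 and 0.0714. Without *mdx5cv* replicate 2 both passed (0.0286), and without *mdx5cv* replicate 4 the differences went from 0.124 to 0.0657 and from 0.143 to 0.0939 percentage points. *Acta1* had 137 to 277 times the normalized count of *Actc1* in WT and 37.6 to 94.2 times in *mdx5cv*. Among the other 4 actins the share of *Actg1* lay between 10.3% and 11.4% in WT and between 6.04% and 7.24% in *mdx5cv*, a description chosen after the values were seen.

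**Figure D4:**
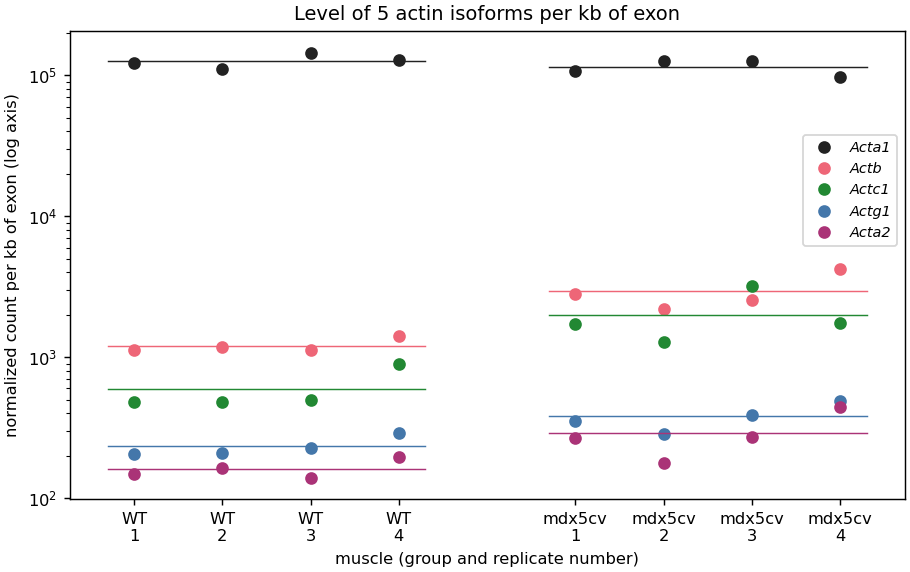
Normalized count per kb of exon (log axis) of 5 actin isoforms in each WT and *mdx5cv* muscle, where each point is 1 muscle and each line is the mean of its group. *Acta1* lies above all others at between 97526 and 145413 in every muscle, and *Actc1* exceeds *Actb* in *mdx5cv* replicate 3 alone.

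*Actb* was the reference transcript of the quantitative PCR in the study, so each other gene was also set against it. In log2 units relative to *Actb*, *Acta1* moved by -1.40, *Srf* by -1.80, *Tagln* by -2.20, *Cnn1* by -2.80, *Vcl* by -0.70, *Actg1* by -0.55 and *Acta2* by -0.47 from WT to *mdx5cv*. For each of these 7 the ratios of the groups did not overlap (exact permutation test, two-sided, p = 0.0286, the smallest this design allows, or 0.0367 adjusted over the 9 ratios). Each of these moves includes the rise of *Actb* itself, at 1.25 on the log2 scale, so a gene that rose less falls here. By its own normalized counts *Acta1* was not called (adjusted p = 0.634, limma). With 1 muscle left out, 6 of the 7 stayed called, and *Actg1* was lost without WT replicate 3 or 4 (adjusted p = 0.0643 and 0.0735, exact permutation). *Actc1* moved by 0.48 (permutation p = 0.371, and by 0.16 without *mdx5cv* replicate 3) and *Tagln2* by 0.30 (permutation p = 0.0857) with overlap. Against *Actb*, *Vcl*, *Acta2* and *Actg1* were thus lower in *mdx5cv*, although their normalized counts were higher.

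For 4 of the genes, the transcripts with the most similar profile were taken as those with the smallest mean absolute difference in log2 deviation from the WT mean over the 8 muscles, among 7640 genes averaging 100 or more normalized counts. For *Acta1* these were *Babam1* (0.044), *Fam114a2* (0.048) and *Lmbr1* (0.049), and for *Srf* they were *Zbtb7b* (0.068), *Kcnj12* (0.070) and *2310061I04Rik* (0.086). For *Acta2* they were *Dynll1*, *Sec61a1* and *Srebf2*, at 0.11 to 0.13. The nearest to *Actc1* were *Col5a3* (0.25), *Sparc* (0.27) and *Pcdh7* (0.29), at a greater distance than for the other 3 genes.

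Between muscles of a group, 7 of the 10 genes were highest in WT replicate 4 and 6 were highest in *mdx5cv* replicate 4, whereas 6 were lowest in *mdx5cv* replicate 2. *Acta1* and *Srf* were lowest in *mdx5cv* replicate 4. Without both muscles numbered 4, the same 6 genes remained higher and *Tagln* remained lower.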

How the data were processed

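The authors deposited normalized counts (a signal) per gene for each muscle, as reads divided by a size factor, with no filter on genes. The submitters' processing notes list Trim Galore 0.6.4, STAR 2.6.0c, featureCounts, DESeq2 1.26.0 and mm10, without parameters, and the labels describe stranded total RNA. The lowest nonzero value of a column was taken as 1 read, and 100% of values were whole multiples of it (tolerance 0.01), and the size factors matched median-of-ratios factors recomputed from them. Replicates differed by more than sampling noise (chi-square per degree of freedom from 8.59 to 38.4). The labels number the replicates but do not say that each came from a separate mouse, so p-values measure the spread between these samples, which may be technical.

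The main test was limma 3.58.1 (R 4.3.3) on log2 normalized counts (pseudocount 1), two-sided, with the trended prior variance and Benjamini-Hochberg adjusted p-values over 13677 genes with a mean of at least 10. edgeR 4.0.16 and DESeq2 1.42.0 on recovered reads were alternatives. On simulated counts of *mdx5cv* against WT in which 200 genes were altered by 2 on the log2 scale, limma recovered 99% over 13543 genes. Smaller changes, such as those of the 9 genes tested, were not simulated, so the 99% does not cover them. Shares and ratios were compared by exact permutation of muscles. Python 3.11.15 was used for the other steps. Gene models are from GENCODE M21 (GRCm38), in which 55141 of the gene IDs were found with versions ignored, and promoter windows from RefSeq (GRCm38.p6).

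Named were all 10 genes, every SRF cofactor, and of each other list the 3 largest changes called. *Cnn2*, *Cfl1*, *Cfl2*, *Cap1*, *Coro1b*, *Coro1c*, lists' genes that fell and overlapping genes were named after their values were seen. A gene counted in the smooth muscle list is not reported here. The members and lists were chosen with earlier results of these data known.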

Additional observations from a re-analysis of the deposited data

Results flagged for a closer look

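In 44 sets of 4 muscles (the 10 genes, 5 actin shares and 7 marker sums, per genotype), Dixon's criterion set the distance from an extreme muscle to the next one against the whole range. In 2 sets 1 muscle stood apart, where chance gives about 2.2. *Actc1* was highest in WT replicate 4, at a log2(normalized count + 1) of 10.51 against 9.60 to 9.66 in the other WT muscles. Without this muscle the log2 fold change of *Actc1* was 1.94 (adjusted p = 8.02e-05, limma). The summed normalized count of the 6 mature fiber markers was lowest in *mdx5cv* replicate 4, at 667113 against 965119 to 1022880 in the other *mdx5cv* muscles. *Acta1* was also lowest in that muscle, and without it the log2 fold change of *Acta1* was -0.08 (adjusted p = 0.742, limma). No explanation was tested for either.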

How the results depend on the processing

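Across 19 alternatives to the fit of all muscles, the count of the 10 genes called higher was 6 in every one. With equal totals the all-gene median of the log2 fold changes went from 0.00 to 0.36 and their calls from 2854 higher and 2743 lower to 5533 and 815. It gave 5 of the genes higher past the fold threshold and 0 lower past it. By adjusted p alone, 1 of the genes was lower, and 3 of the related genes were lower in place of 13. Equal totals also turned the log2 fold change of *Acta1* to 0.21 (adjusted p = 0.269, limma). Relative to the all-gene median with equal totals, *Acta1* was at -0.16, *Srf* at -0.56 and *Tagln* at -0.96. Leaving out both muscles numbered 4, chosen after the data were seen, left 1 gene lower. A lower gene passed the fold threshold with no filter on low values and in DESeq2 (1 gene in each), and leaving out each muscle gave from 0 to 1. The called genes other than *Srf* kept their call in every fit that tested them, with adjusted p-values of at most 0.0407. *Cnn1* was tested with no filter and by DESeq2 only, and by permutation with both other pseudocounts, with log2 differences from -1.84 to -0.75. The correlations do not settle whether the replicate numbers pair the samples. Deviations of same-numbered muscles correlated at 0.031 to 0.146, against -0.148 to 0.074 for muscles of different numbers. Not every muscle correlated best with its own number. With the replicate block the fit called 6 genes higher and 2 lower, 35 related genes higher and 14 lower (33 and 13 without it), and 2880 of all genes higher and 2736 lower. The ratio of *Acta1* to *Actb* under the pairing was again -1.40, and sign flips within 4 pairs cannot reach the threshold. Shares and ratios kept their direction with each muscle left out, under other lengths, with *Actg2* added and with other pseudocounts. With 1 muscle left out, the share differences ranged from -3.63 to -2.42 percentage points for *Acta1*, 0.935 to 1.41 for *Actc1*, 1.08 to 1.88 for *Actb*, 0.0657 to 0.162 for *Acta2* and 0.0939 to 0.178 for *Actg1*, and the log2 ratio of *Actg1* to *Actb* from -0.63 to -0.50. With no length scaling the differences were 2.68 for *Actb* and 0.236 for *Actg1*. The depth limits *Cnn1*, with 3 to 5 reads in each *mdx5cv* muscle. The 4 samples in a group limit the precision elsewhere.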
